A study of Mus musculus with 9 samples.

Results

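Culture activation of primary mouse hepatic stellate cells was described from 6 of the 9 arrays of the series, 3 of quiescent cells and 3 of activated cells, chosen by their labels. Each array was an Agilent whole-genome microarray hybridised with Cy3-labelled copies of the RNA of 1 sample. All cells came from C57BL/6 mice aged 10 weeks and were isolated by collagenase perfusion in 2 steps, then plated in 1640 medium with 10% fetal bovine serum. Activated cells had been cultured for 7 days on a hard plate and were then transfected overnight with a negative control siRNA at 5 nM. Quiescent cells carry the treatment label None, and no time of harvest is given for them. The comparison asks what changes as stellate cells become activated, and within it culture time and transfection cannot be told apart. The other 3 arrays, of activated cells given an siRNA against Cav1, entered only the estimate of spread. The labels do not say whether samples of a group came from separate mice or cultures, so the spread behind each p-value is that between these samples, and it may be technical.

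Hepatic stellate cells lie between hepatocytes and the endothelium of the liver sinusoids and store vitamin A as retinyl esters in lipid droplets. After injury, or on a stiff culture surface, they lose these droplets and become myofibroblasts, contractile and proliferating cells that secrete the fibrillar collagens and other matrix of liver scars. TGF-beta and PDGF ligands, stiffness sensing through integrins, and Hedgehog and Wnt signals are known to drive this change, while transcription factors such as Lhx2 and the nuclear receptor Pparg are known to oppose it.

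Signals are given on the log2 scale relative to the 75th percentile of each array, so that 0 is the level of that percentile, and a change is the activated mean minus the quiescent mean. Among 23965 genes measured, 16328 were called at an adjusted p under 0.05 (limma), 68.1% of all, with 42.1% of all genes higher and 26.0% lower in activated cells. Of the calls 61.8% were higher, against 44.3% when arrays were scaled to ribosomal protein genes and 46.2% with another background correction (normexp). The median change of all genes was +0.32, so each list is set beside that value. Of the 17019 genes above background on all 6 arrays, 39.6% were called higher and 28.0% lower. Kept probes differed in sign for 6.11% of called genes, those with 1 kept probe included. Of the 8189 genes with several kept probes, called or not, 1990 had probes that differed in sign. Probes above background made up 51.5 to 58.4% of probes on quiescent arrays and 61.9 to 69.0% on activated arrays, and the median SD of a gene was 0.35 in quiescent and 0.16 in activated cells. Over all genes, which are no independent replicates, the correlation was 0.970 to 0.984 among quiescent arrays, 0.991 to 0.994 among activated arrays and 0.705 to 0.719 between the groups. All 3 quiescent arrays and activated array 1 lay on one slide and activated arrays 2 and 3 on another, and a fit with the slide as a block gave 12559 calls.

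The quiescent arrays carried strong signals of other liver cells, and each falling gene below is to be read beside them. All 40 measured hepatocyte markers were above background on each quiescent array, and 21 or 22 were on the activated arrays. Their summed signal, in units of the array's 75th percentile, was 3866, 3540 and 4129 on quiescent arrays 1 to 3 and 222, 265 and 265 on activated arrays 1 to 3. The groups lay far apart, with a 15.4-fold difference of their geometric means. The exception among these markers was Slc10a1, the bile acid importer of hepatocytes, whose brightest probe read 7.05, 7.53 and 7.57 there and 7.25, 7.34 and 7.08 in quiescent cells, while its other kept probe fell by 10.70. Without Slc10a1, a choice made after its values were seen, the sums in activated cells were 89.5, 80.0 and 74.9 and the difference was 45.4-fold. Alb, the serum albumin gene and defining hepatocyte marker, read 6.99, 6.61 and 6.63 in quiescent cells and -6.05, -6.51 and -6.21 in activated cells, where its probe was above background on 1 of 3 arrays.

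Endothelial, macrophage, lymphocyte and blood markers followed the same order. The 34 endothelial markers summed to between 689 and 1147 on quiescent arrays and between 10.6 and 11.2 on activated arrays, 33 of them fell, and Stab2, the scavenger receptor of sinusoidal endothelium, went from 4.89, 5.46 and 4.68 to -3.90, -4.01 and -4.13. Only Rspo3, a Wnt enhancer that the stellate list also holds, rose among them (+2.64). The 30 Kupffer cell and macrophage markers summed to 511 to 858 against 57.6 to 65.9, with 27 lower and 3 higher. All 30 were above background on each quiescent array, and 24 or 25 were on the activated arrays. Clec4f, a lectin particular to Kupffer cells, was at least 4034-fold lower and not above background on any activated array. Lymphocyte markers summed to 84.0 to 197 against 2.85 to 3.79, with 23 of 24 lower. Erythroid and platelet markers summed to 391 to 597 against 0.828 to 0.906, with 11 of 12 lower and 1 higher. Neutrophil markers summed to 57.6 to 86.8 against 52.9 to 69.3, and the groups overlapped. Of the 13 markers 12 fell, and the remaining one, the granulocyte growth factor receptor Csf3r, read 5.67 ± 0.23 in quiescent and 5.96 ± 0.22 in activated cells (SD, n = 3; adjusted p = 0.20). Without Csf3r, a choice made after its values were seen, the other 12 summed to 12.9 to 29.6 in quiescent and 0.682 to 0.873 in activated cells. For any gene that stellate cells share with these cells, fewer cells of a type and less RNA per cell cannot be told apart in such bulk samples, and the part of other cells in each fall was not tested.

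**Figure D1:**
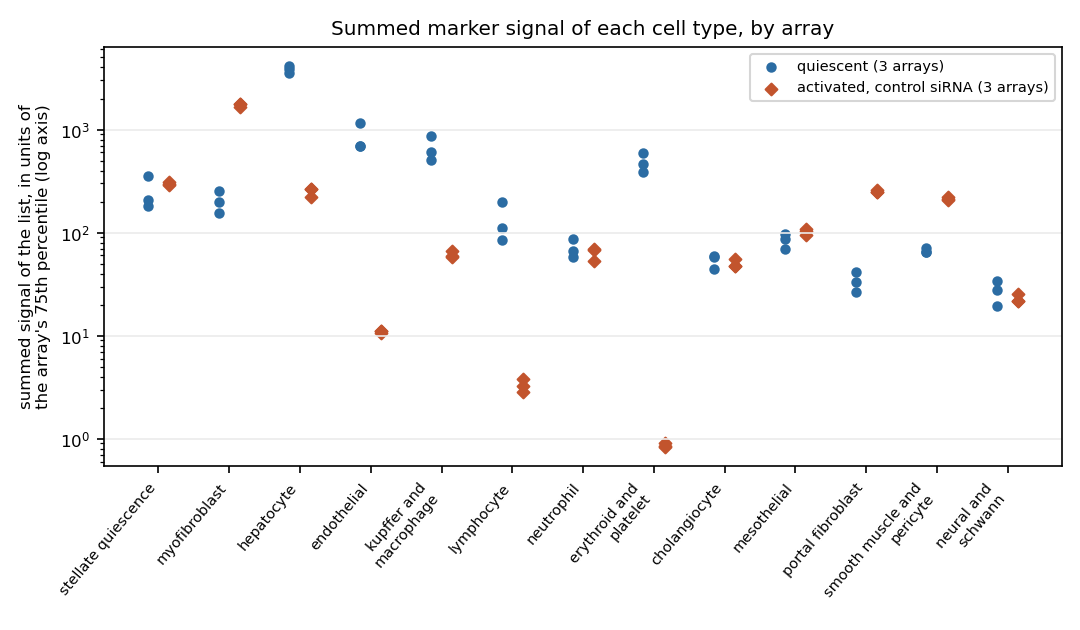
Summed signal of each marker list on each array, on a log axis in units of the array's 75th percentile, for 3 quiescent (circles) and 3 activated arrays (diamonds). Hepatocyte, endothelial, macrophage, lymphocyte and erythroid sums were higher on every quiescent array than on any activated array, whereas myofibroblast, portal fibroblast and smooth muscle sums were higher on every activated array, the last only with Acta2 among its markers. The other sums, that of stellate quiescence genes among them, overlapped between groups.

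The 3 quiescent arrays also differed from each other in which lists read highest on them. Over the 18342 genes above background on all 3, the highest signal fell on array 1 for 28.1%, on array 2 for 32.7% and on array 3 for 39.2%. Quiescent array 2 was highest for 34 of 34 endothelial markers, 33 of 37 stellate quiescence genes, 6 of 6 fibrillar collagens and 39 of 45 mitotic genes, and lowest for 49 of 49 respiratory chain genes and 24 of 40 hepatocyte markers. Array 1 was highest for 23 of 30 macrophage, 21 of 24 lymphocyte and 9 of 11 erythroid and platelet markers, and array 3 for 22 of 40 hepatocyte markers. Most stellate and endothelial genes were thus highest on the same array, and most hepatocyte genes on another. Array 2 also had the fewest probes above background, 51.5% against 58.4% and 58.1% on arrays 1 and 3. Its dimmest signal above background was -4.08, against -5.41 on arrays 1 and 3. It was lowest for 70 of 74 ribosomal protein genes and 32 of 36 proteasome genes as well. Whether cell content or signal range lies behind the order of the arrays was not tested. Without quiescent array 2 there were 16823 calls, and the stellate quiescence list had 6 members higher and 29 lower, against 5 and 28 with it.

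**Figure D2:**
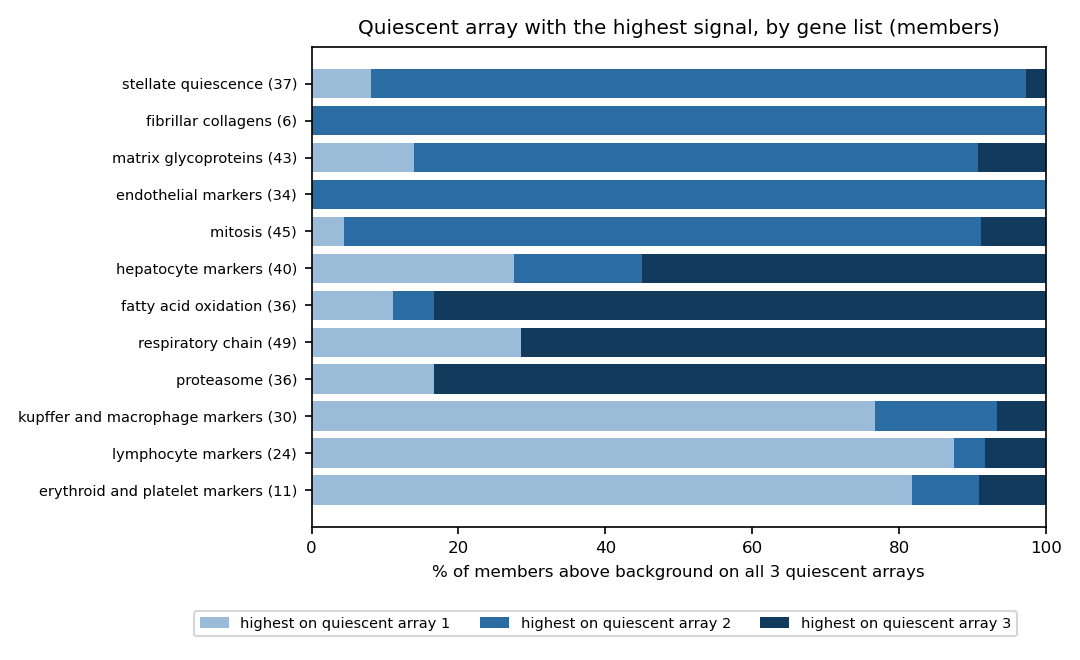
Share of each list's members, among those above background on all 3 quiescent arrays, that had their highest signal on quiescent array 1, 2 or 3. Array 2 was highest for all 34 endothelial markers and all 6 fibrillar collagens, array 1 for 21 of 24 lymphocyte markers, and array 3 for 30 of 36 fatty acid oxidation genes.

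The labels were checked against stellate and myofibroblast genes. Acta2, which encodes the smooth muscle actin of myofibroblasts, read -0.19, -0.99 and -1.66 in quiescent cells and 7.47, 7.39 and 7.40 in activated cells by its brightest probe (chromosome 19, 34316060 to 34316119, mm9). Timp1, the inhibitor of matrix metalloproteinases, read -2.15, -2.11 and -2.48 against 6.61, 6.33 and 6.49 (chromosome X, 20451675 to 20451733). Lrat, which esterifies retinol for storage, read 0.48, 1.30 and -0.13 against -8.04, -8.44 and -8.47, the latter not above background (chromosome 3, 82696805 to 82696864). The groups did not overlap for any of these markers, as held for 69.8% of all genes, and each moved in the direction of its label: Acta2 rose by 8.37 (SE 0.31, adjusted p = 3.3e-08), Timp1 rose by 8.73 (SE 0.15, adjusted p = 8.7e-10), and Lrat was at least 104-fold lower (adjusted p = 3.2e-08). The other 3 kept probes of Acta2 gave +9.07, +2.03 and +0.30. A fold written as at least is a bound, used where no array of a group read the gene's brightest kept probe above background, and set against the dimmest signal above background on those arrays, or the probe's own where that is higher. Medians of lists are given with such genes at their fitted change and, where that differs, also at their bounds. Among all genes, 1790 (7.47%) were called higher with that probe above background on no quiescent array, and 877 (3.66%) lower with it above background on no activated array. Probes for Des and Gfap, the classical intermediate filament markers of stellate cells, did not pass the background filter and were not tested.

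**Figure D3:**
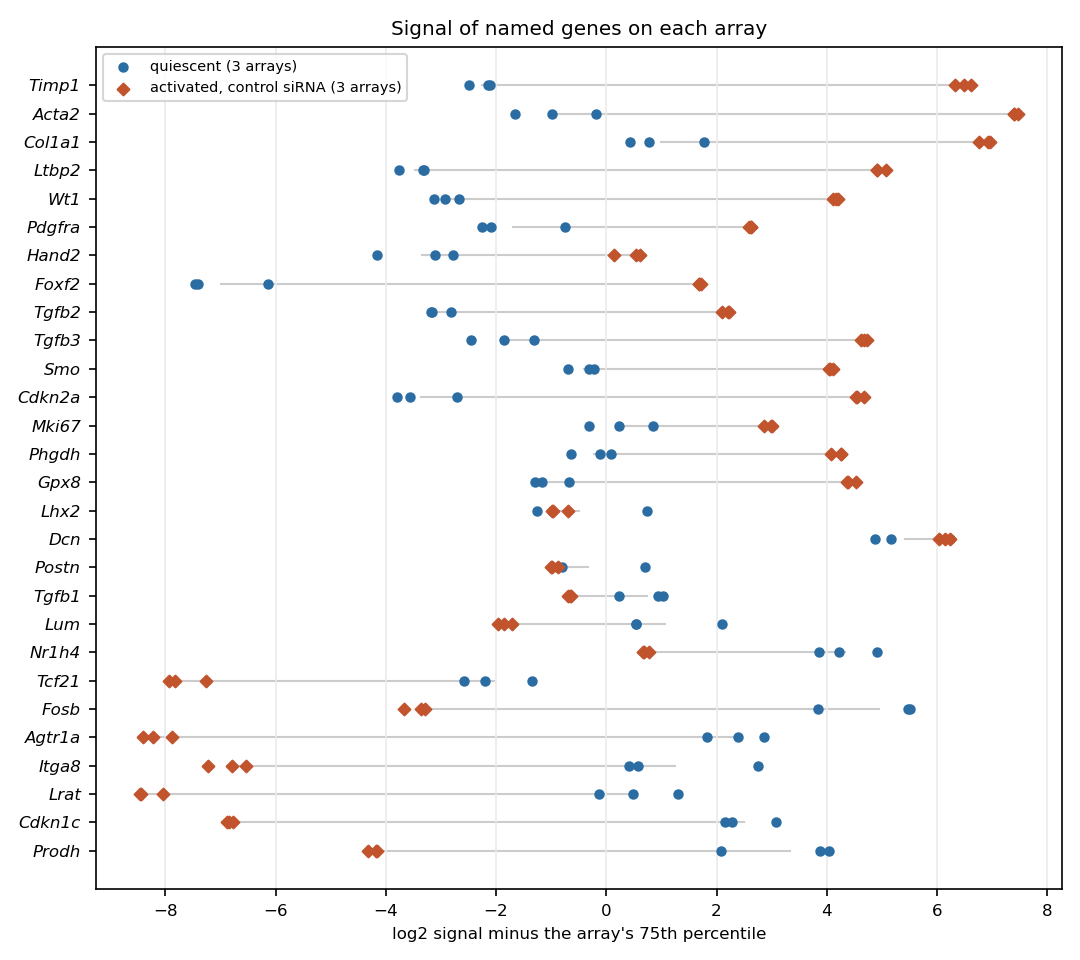
Log2 signal, relative to the array's 75th percentile, of 28 named genes on each quiescent array (circles) and each activated array (diamonds), with a line between group means. Lhx2, Dcn and Postn overlapped between groups, and the other genes shown did not, as held for 69.8% of all genes.

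Genes that mark quiescent stellate cells mostly fell, and some rose. Of 38 measured, 28 fell and 5 rose, with a median change of -2.20 (-2.16 at bounds). Their summed signal was 182 to 353 on quiescent and 292 to 307 on activated arrays, and the groups overlapped. Colec10, a collectin secreted by stellate cells, read 2.92, 4.11 and 2.37 in quiescent cells and -5.27, -5.27 and -4.68 in activated cells (change -8.21, SE 0.40, adjusted p = 1.7e-07). It was lower on every activated array than on any quiescent array, while 69.8% of all genes did not overlap between groups. Pth1r, the parathyroid hormone receptor, fell by 4.82, the nerve growth factor receptor Ngfr by 3.82, the globin Cygb by 1.14 and the filament gene Nes by 1.43. Abcc9, a potassium channel subunit of pericytes, was at least 97.2-fold lower and the ficolin Fcna at least 696-fold lower. Cygb lost its call with the slide as a block (change -1.18), a fit that sets only activated array 1 against the quiescent arrays.

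The 5 quiescence genes that rose were Pdgfra, Hand2, Rspo3, Cxcl12 and Bmp10, the last above background on 1 of 3 quiescent arrays and not called with ribosomal protein scaling (adjusted p = 0.37) or without activated array 1 (adjusted p = 0.051). Pdgfra, the PDGF receptor found on most mesenchymal cells, read -2.26, -0.74 and -2.09 against 2.62, 2.62 and 2.59 (change +4.31, SE 0.34, adjusted p = 4.5e-06). Hand2, a mesenchymal transcription factor, read -3.10, -2.78 and -4.16 against 0.14, 0.60 and 0.54 (change +3.78, SE 0.32, adjusted p = 6.7e-06). Cxcl12, the chemokine that retains blood progenitors, rose from 4.76 ± 0.50 to 7.36 ± 0.03 (SD, n = 3). For Pdgfra, Hand2 and Cxcl12 every activated array lay above every quiescent array, while 69.8% of all genes did not overlap between groups. Lhx2, the LIM homeobox factor that restrains activation, read -1.25, 0.74 and -0.98 against -0.69, -0.98 and -0.97 (change -0.38, SE 0.44, adjusted p = 0.46), and its groups overlapped, with quiescent array 2 above all other arrays. Pparg read 2.15, 0.96 and 2.04 against 1.65, 1.43 and 1.36 (change -0.24, SE 0.29, adjusted p = 0.49). The proteoglycan Dcn (+0.72, adjusted p = 0.061) and the matrix protein Ecm1 (+0.07, adjusted p = 0.85) also missed the threshold, which does not show that their levels were equal, and the sign of Ecm1 turned with scaling. Without quiescent array 2, Dcn rose by 1.12 (adjusted p = 1.2e-04, limma), Pparg fell by 0.62 (adjusted p = 0.0053), and Lhx2 was at +0.23 (adjusted p = 0.19). Dcn was called higher in 5 of 19 alternatives, the others being median scaling (+0.86, adjusted p = 0.010), normexp (+0.82, adjusted p = 0.015), the filter on all arrays, which keeps probes above background on every array (adjusted p = 0.044), and array weights (+0.88, adjusted p = 0.0064).

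Retinoid genes fell as a group, 21 of 27 measured lower and 3 higher (median -2.74). The storage gene Lrat, the retinoid-responsive Rarres2 (change -7.27) and the retinoic acid hydroxylase Cyp26b1 (-6.98), fell together with the nuclear receptors Rarb (-4.16) and Rxrg, which was at least 66.0-fold lower. The alcohol dehydrogenase Adh1 was at least 13084-fold lower. Adh1, Rbp4 and Ces1d are also hepatocyte genes, whose markers fell as described above. Those that rose were the retinol reductase Rdh11 (+1.88), the receptor Rarg (+0.85) and the lipoprotein lipase Lpl (+0.76), and with ribosomal protein scaling Rarg and Lpl lost their calls (adjusted p = 0.29 and 0.16).

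**Figure D4:**
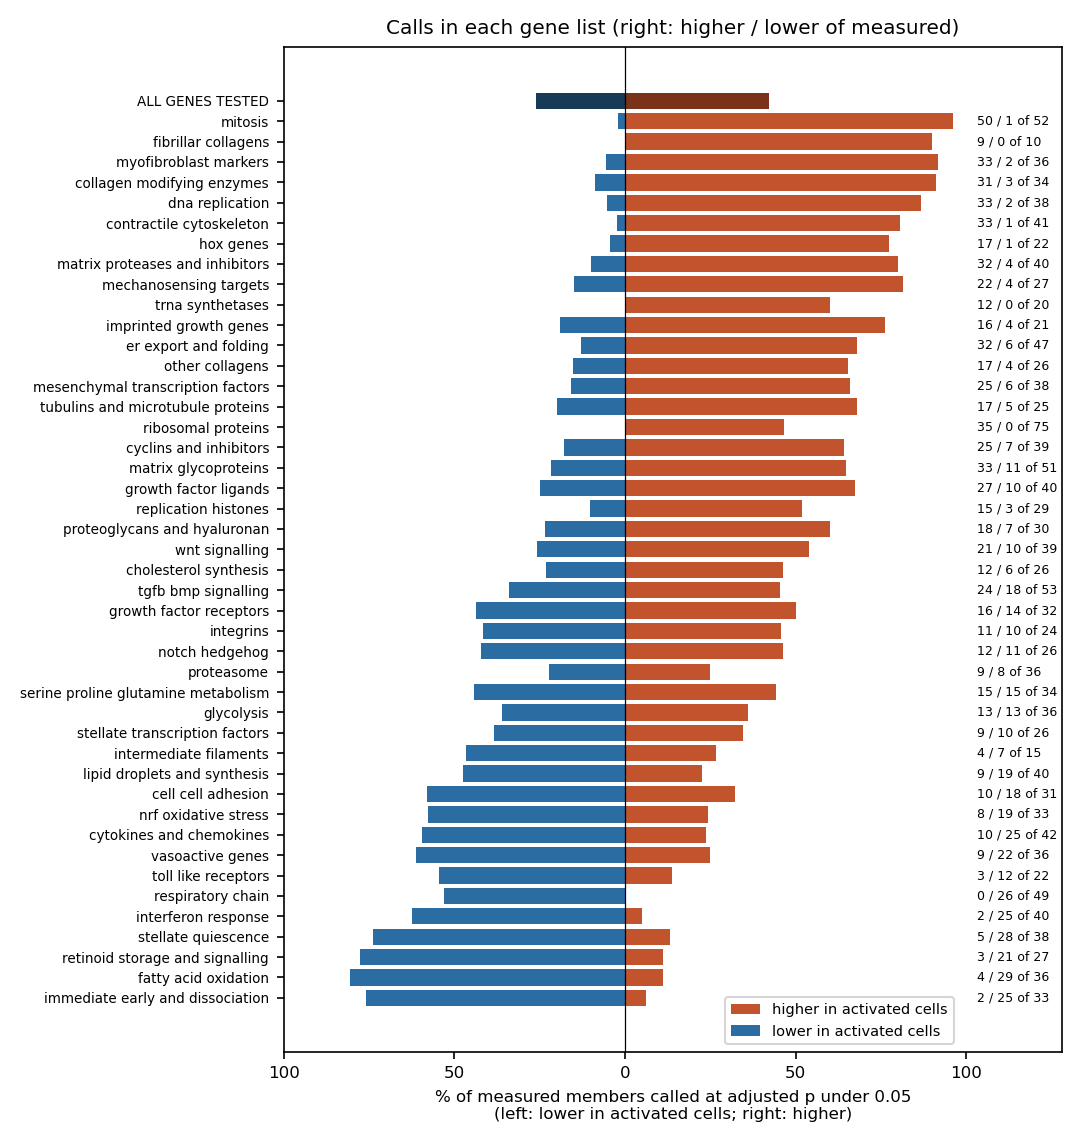
Share of measured members called, for each gene list other than markers of other cell types and reference genes, higher (right, orange) or lower (left, blue) in activated cells at an adjusted p under 0.05, with counts at the right and all genes tested in the top bar. Mitosis (50 higher, 1 lower of 52) and the list of immediate-early and dissociation genes (2 higher, 25 lower of 33) stand at the ends of the order shown.

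Transcription factors of stellate cells split, 9 of 26 higher and 10 lower (median -0.27). These counts are 34.6% and 38.5% of the list, beside 42.1% and 26.0% of all genes. Foxf2, a forkhead factor of visceral mesenchyme, was not above background on any quiescent array and read 1.72, 1.68 and 1.69 in activated cells, at least 101-fold higher. Wt1, expressed in the embryonic mesothelium from which stellate cells arise, read -2.66, -3.13 and -2.93 against 4.12, 4.21 and 4.17 (change +7.07, SE 0.15, adjusted p = 1.9e-09). The vitamin D receptor Vdr (+4.37), the zinc finger factor Gata6 (+3.98) and Foxf1 (+3.64) also rose. Tcf21, a basic helix-loop-helix factor of fibroblasts, read -2.20, -1.34 and -2.59 in quiescent cells and was not above background in activated cells, at least 17.2-fold lower. Nr1h4, the bile acid receptor FXR, which hepatocytes also express, read 4.22, 3.85 and 4.92 against 0.78, 0.69 and 0.67 (change -3.62), although its other kept probe gave -0.26. Ets1 (-2.86), Klf2 (-2.70) and Nr2f2 (-1.93), all also active in endothelium, fell.

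Factors of embryonic mesenchyme rose more often than they fell, 25 of 38 against 6 (median +2.10, +1.71 at bounds, and +0.61 with normexp). Tbx15, Tbx18 and Twist2 were not above background on any quiescent array and were at least 51.4-fold, 38.7-fold and 22.6-fold higher. Prrx1, a homeobox factor of limb and connective tissue mesenchyme, rose by 6.90, with its probe above background on 2 of 3 quiescent arrays, and Twist1 by 3.66. Sox17 (-5.99, above background on 2 of 3 activated arrays) and Sox18 (at least 125-fold lower), both endothelial factors, were among those that fell. Hox genes, which set position along the body axis, were higher for 17 of 22 measured and lower for Hoxa9 (-0.85; adjusted p = 0.13 with the slide as a block), with a median of +2.42 (+2.12 at bounds). Hoxb6 read -4.99, -3.27 and -3.35 against 0.91, 0.58 and 0.61 (change +4.57, SE 0.40, adjusted p = 8.9e-06), and Hoxb8 and Hoxc4 were at least 12.5-fold and 11.5-fold higher. With no filter on dim probes the Hox count was 18 higher and 10 lower, and with normexp 13 and 4.

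Matrix genes rose in most classes. Fibrillar collagens were higher for 9 of 10 measured (median +3.65, +3.04 at bounds), and Col1a1, a chain of type I collagen, read 0.77, 1.77 and 0.43 against 6.76, 6.97 and 6.93. Among other collagens 17 of 26 rose and 4 fell (median +2.66, +2.06 at bounds), against 16 and 10 with normexp (median +0.83). Col8a1 rose by 8.51 and Col6a2 by 6.62, while Col18a1, which also lies in vessel and hepatocyte basement membranes, fell by 3.32. The brightest probe of Col13a1 was at least 620-fold lower, whereas another kept probe, above background on all 6 arrays, fell by 0.97. Enzymes that modify collagen rose for 31 of 34 (median +2.92, +2.89 at bounds), among them the chaperone Fkbp10 (+6.81) and the propeptidase enhancer Pcolce (+4.83), and the lysyl hydroxylase Plod1 fell by 2.21. Proteases and their inhibitors were higher for 32 of 40 and lower for 4 (median +2.88, +2.71 at bounds), with Mmp2 at +5.81, Mmp3 at least 88.5-fold higher and Adamts1 at -3.91.

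Glycoproteins of the matrix rose for 33 of 51 and fell for 11 (median +2.14). The latent TGF-beta binding proteins were split: Ltbp2 read -3.31, -3.33 and -3.76 against 4.90, 5.07 and 4.91 (change +8.43, SE 0.15, adjusted p = 9.7e-10), Ltbp1 rose by 6.46 and Ltbp3 by 6.12, and Ltbp4 fell by 3.67. Fbln2, an elastic fibre protein, read -1.35, -0.75 and -1.48 against 7.12, 6.97 and 6.90 (change +8.19). For Ltbp2 and Fbln2 the groups were far apart, well beyond the spread within each. Tgfbi, an adhesion protein induced by TGF-beta, read 3.58, 4.33 and 3.11 against -0.03, -0.17 and -0.14, a fall of 3.79. Postn, the periostin gene usually high in myofibroblasts, read -0.80, 0.71 and -0.90 against -0.88, -1.01 and -0.98 and was not called (change -0.63, adjusted p = 0.16). Of the 36 myofibroblast markers measured, 33 rose (median +3.78), Tgfbi and Lum fell, and Postn was not called. Fn1, the fibronectin gene, rose by 2.11.

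Proteoglycan and hyaluronan genes rose for 18 of 30 and fell for 7 (median +1.21, +1.04 at bounds). Cemip, which breaks hyaluronan down, was at least 422-fold higher, and the hyaluronan synthase Has2 at least 23.7-fold, with neither above background on a quiescent array. The kept probes of Cemip gave +4.24 and +11.03. The brightest probe of Vcan, a large hyaluronan-binding proteoglycan, was at least 109-fold higher, but a further probe, above background on all 6 arrays, rose by 2.01. Another synthase gene, Has1, fell by 2.55, with 1 of 3 activated arrays above background. Lum, a small leucine-rich proteoglycan that spaces collagen fibrils, read 0.55, 2.10 and 0.55 against -1.71, -1.86 and -1.97 (change -2.91, SE 0.38, adjusted p = 1.3e-04), whereas its relatives Bgn and Ogn rose by 3.83 and 4.83. Every activated array lay below every quiescent array for Lum and above for Bgn and Ogn, while 69.8% of all genes did not overlap between groups.

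Genes of the contractile cytoskeleton rose for 33 of 41 and fell for 1, the LIM protein Csrp2 (-1.79), with a median of +1.79. Flnc, a filamin of muscle Z-discs, read -3.79, -2.40 and -3.99 against 4.67, 4.65 and 4.58 (change +8.03), Tagln rose by 5.95 and Cnn1 by 5.44. The cytoplasmic actin Actb was not called (-0.18). Among 15 intermediate filament genes 4 rose, with the mesenchymal Vim at +2.64 and the lamin Lmna at +3.17, and 7 fell, 4 of them keratins, with Nes at -1.43. Serum response factor acts on such genes through the CArG box, and the windows of 250 bases before the start sites of these genes were searched for it in the RefSeq promoters of GRCm38.p6. Promoters were found for 35 list members, of which 7 held a CArG box (20%), against 439 of 27025 genes with a window (1.62%). A match is a description of the letters and not of binding. The 3 windows shown are those of Myl9 (myosin light chain, change +3.96; chr2:156775214-156775463, plus strand), Acta1 (skeletal actin, +3.34; chr8:123894776-123895025, minus strand) and Vcl (vinculin, which ties actin to adhesions, +2.73; chr14:20929148-20929397, plus strand), with the CArG box in capitals at 161, 73 and 227 bases before the start site.
Myl9: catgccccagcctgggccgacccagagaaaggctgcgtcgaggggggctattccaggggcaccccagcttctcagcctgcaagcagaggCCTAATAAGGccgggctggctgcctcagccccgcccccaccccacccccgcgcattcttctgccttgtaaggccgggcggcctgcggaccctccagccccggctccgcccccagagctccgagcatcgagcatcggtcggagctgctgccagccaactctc
Acta1: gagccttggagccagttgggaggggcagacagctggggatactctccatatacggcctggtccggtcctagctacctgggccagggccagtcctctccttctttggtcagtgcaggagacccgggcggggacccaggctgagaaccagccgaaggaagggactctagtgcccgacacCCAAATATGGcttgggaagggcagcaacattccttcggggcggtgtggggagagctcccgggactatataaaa
Vcl: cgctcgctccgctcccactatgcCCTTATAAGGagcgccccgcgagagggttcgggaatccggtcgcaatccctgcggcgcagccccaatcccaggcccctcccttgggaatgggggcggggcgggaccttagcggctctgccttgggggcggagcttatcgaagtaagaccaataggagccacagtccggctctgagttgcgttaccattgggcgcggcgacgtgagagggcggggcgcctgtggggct
The table held no window of Tagln, and that of Acta2 held no CArG box in these letters.

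Tubulins and microtubule proteins rose for 17 of 25 and fell for 5 (median +1.66, +1.37 at bounds). Tuba1a, an alpha tubulin of dividing and neuronal cells, read 2.62, 2.73 and 2.18 against 6.06, 6.30 and 6.32, and the microtubule-binding Map1b rose by 5.79, whereas Tuba8 fell by 5.02 and Tuba4a by 2.83. Targets and cofactors of stiffness sensing through YAP, TAZ and SRF rose for 22 of 27 and fell for 4 (median +1.39), with Fhl2 at +6.10, tissue factor F3 at +5.70 and the YAP target Ccn2 at +1.30.

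Adhesion genes changed by member. Integrins were higher for 11 of 24 and lower for 10, and the sign of their median (+0.14) turned with scaling (-0.29 to +0.29). Itga8, an integrin chain of stellate cells and pericytes, read 0.57, 2.75 and 0.40 in quiescent cells and was not above background in activated cells, at least 168-fold lower. Itga11, the collagen-binding chain of fibroblasts, was at least 224-fold higher by its brightest probe, although its other kept probe, above background on 1 of 3 quiescent arrays, gave +1.71. The matrix-binding chains Itgav (+3.25) and Itga3 (+4.45) rose, while Itga4 (-6.06), Itgal (-5.84) and Itgb7 (-7.16), which leukocytes carry, fell beside the lymphocyte markers. Cell-to-cell adhesion genes were lower for 18 of 31 and higher for 10 (median -1.66, and -0.83 with normexp and quantile normalization). The epithelial cadherin Cdh1 fell by 4.13 and the endothelial Cdh5 was at least 1034-fold lower, whereas the mesenchymal Cdh2 rose by 4.35 and Cdh11 by 1.54.

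Ligands of the TGF-beta family moved in opposite directions. Tgfb1 read 1.04, 0.95 and 0.22 against -0.66, -0.63 and -0.70, a fall of 2.64-fold (change -1.40, SE 0.22, adjusted p = 3.6e-04). Tgfb2 read -3.18, -2.81 and -3.17 against 2.23, 2.20 and 2.10 (change +5.23, SE 0.15, adjusted p = 8.5e-09), and Tgfb3 read -1.31, -1.85 and -2.45 against 4.62, 4.73 and 4.68 (change +6.55, SE 0.25, adjusted p = 4.2e-08). None of the 3 ligands overlapped between groups, as held for 69.8% of all genes. Of the BMP ligands, Bmp5 (-5.96) and Gdf2 (-5.87), which stellate cells are known to make, and Bmp2 (at least 1346-fold lower), an endothelial product in liver, fell, whereas Bmp4 rose by 5.13. The secreted BMP antagonist Grem1 was not above background in quiescent cells and read 5.53, 5.31 and 5.38 in activated cells, at least 1328-fold higher. Over the 53 genes of this pathway 24 rose and 18 fell (45.3% and 34.0%, beside 42.1% and 26.0% of all genes). The sign of their median (+0.23) turned with scaling (-0.20 to +0.38).

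Among growth factor ligands 27 of 40 rose and 10 fell (median +1.94, +1.89 at bounds). Pdgfb fell by 2.42 while Pdgfa rose by 3.39 and Pdgfc by 2.76, and the fibroblast growth factor Fgf7 and the heparin-binding Ptn were at least 188-fold and, by its brightest probe, at least 82.0-fold higher. The other kept probe of Ptn, above background on 1 of 3 quiescent arrays, gave +6.34. Vegfd, a lymphatic growth factor, read -3.31, -3.12 and -3.08 against 4.85, 4.68 and 4.63 (change +7.89). Hgf, the hepatocyte growth factor made by stellate cells, read -1.05, -0.51 and -0.27 against -2.23, -2.32 and -2.23 (change -1.65). Receptors divided into 16 higher and 14 lower of 32, a split whose median (+0.27) changed sign with scaling (-0.20 to +0.42). Those that rose included the collagen receptors Ddr1 (+4.86) and Ddr2 (+4.88) and Pdgfrb (+4.51), and those that fell included the endothelial Tek (at least 263-fold lower) and Kdr (-8.23).

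**Figure D5:**
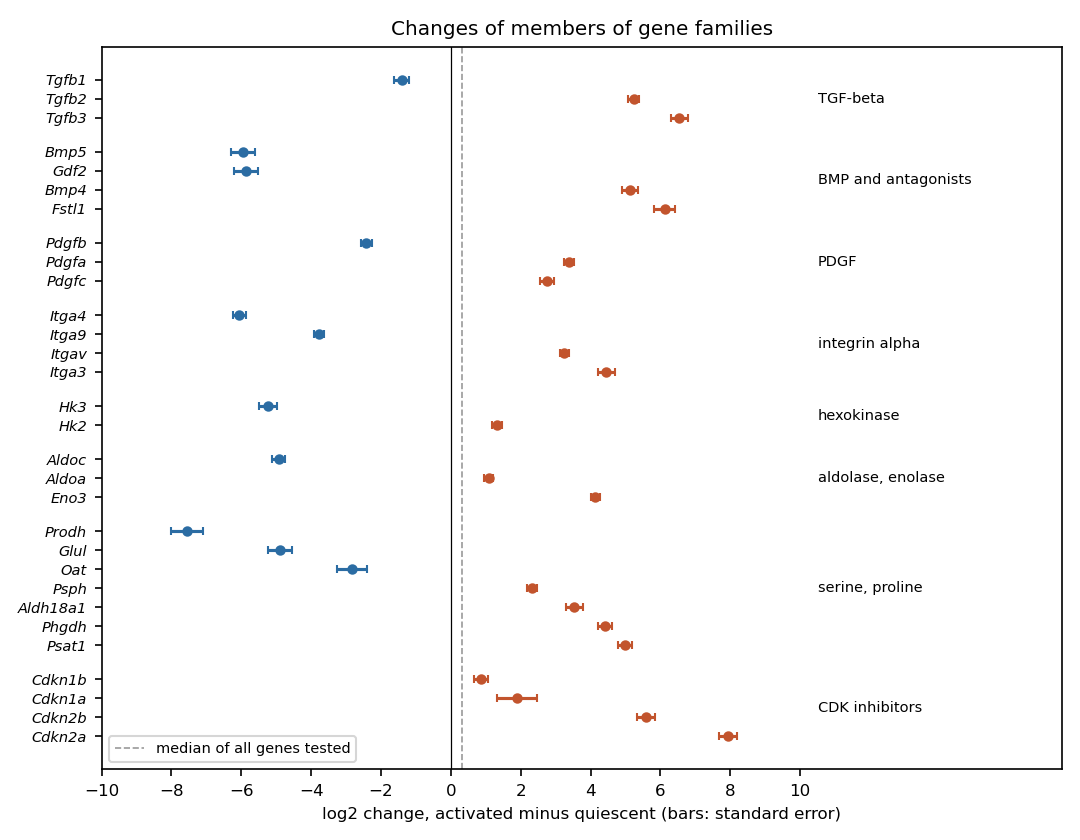
Log2 change (activated minus quiescent, points) with its standard error (bars) for members of 8 gene families, with the median of all genes as a dashed line. Tgfb1, Pdgfb, Hk3 and Prodh fell while relatives of the same family or pathway rose.

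The list of Notch and Hedgehog genes held 12 higher and 11 lower of 26, with a median (+0.37) that turned under ribosomal protein scaling (-0.06). Smo, which carries the Hedgehog signal across the membrane, read -0.31, -0.22 and -0.70 against 4.04, 4.06 and 4.12 (change +4.48, SE 0.15, adjusted p = 2.0e-08). The co-receptors Gas1 (+4.25) and Cdon (+3.36) also rose, and Gli1, a target of the pathway as well as its effector, was not above background in quiescent cells and at least 3.57-fold higher. Hhip, which sequesters Hedgehog ligands, fell by 3.90. The Notch ligands Dll1 (-4.03) and Dll4 (at least 15.6-fold lower) and the endothelial receptor Notch4 (-3.50) fell.

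Wnt genes were higher for 21 of 39 and lower for 10 (median +0.61, +0.52 at bounds), and 17 and 17 with normexp. The first counts are 53.8% and 25.6% of the list, beside 42.1% and 26.0% of all genes. Wnt5a, a ligand of the non-canonical pathway, read -3.17, -2.93 and -2.72 against 3.49, 3.03 and 3.03 (change +6.12), and its receptor Fzd2 was at least 284-fold higher. Wnt2, an endothelial ligand of the liver, fell by 6.61, and Lef1 (-3.63) and Tcf7 (-3.50), factors also of lymphocytes, fell.

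Vasoactive genes were lower for 22 of 36 and higher for 9 (median -1.77). Agtr1a, the angiotensin receptor of stellate cells and vessels, read 1.83, 2.87 and 2.40 in quiescent cells and was not above background in activated cells, at least 365-fold lower. Both endothelin receptors fell, Ednra by 4.63 (above background on 2 of 3 activated arrays) and Ednrb by 4.21, while the ligand gene Edn1 read -2.92, -1.45 and -2.53 against 0.69, 0.78 and 0.75 (change +3.04, SE 0.32, adjusted p = 2.9e-05). Quiescent and activated arrays did not overlap for any of these genes, as held for 69.8% of all genes.

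Proliferation genes rose. Replication genes were higher for 33 of 38 (median +1.92) and mitotic genes for 50 of 52 (median +3.69, +3.68 at bounds), with the securin Pttg1 the 1 mitotic gene that fell (-1.90). Replication histones were higher for 15 of 29 and lower for 3 (median +0.67, +0.64 at bounds). These counts are 51.7% and 10.3% of the list, beside 42.1% and 26.0% of all genes. Cyclins with their inhibitors were higher for 25 of 39 and lower for 7 (median +1.11), with cyclin D1 (Ccnd1) higher by 1.39. Mki67, the usual marker of cycling cells, read 0.23, 0.86 and -0.32 against 2.98, 2.86 and 3.00 (change +2.69, SE 0.26, adjusted p = 1.6e-05), and Kif20a, a kinesin of cell division, rose by 5.98. Among the inhibitors of cyclin-dependent kinases, members moved in both directions. Cdkn2a, whose proteins hold back the cell cycle through RB and p53, read -3.57, -2.71 and -3.79 against 4.55, 4.68 and 4.53 (change +7.94, SE 0.25, adjusted p = 1.5e-08), and its neighbour Cdkn2b rose by 5.58. Cdkn1a, an inhibitor induced by p53, read 1.57, 2.42 and -0.38 against 3.29, 2.99 and 3.01 (change +1.89, SE 0.57, adjusted p = 0.016, limma), and lost its call with ribosomal protein scaling (adjusted p = 0.061). It also lost the call with the slide as a block (change +2.09), where only activated array 1 is set against the quiescent arrays. Its remaining probes changed by +0.09 and +4.07. Cdkn1c, an imprinted inhibitor of quiescent cells, read 2.28, 3.08 and 2.16 in quiescent cells and was not above background in activated cells, at least 402-fold lower.

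Promoters of mitotic genes are known for the CHR element, here searched as TTTGAA and its complement TTCAAA, and for CCAAT boxes (CCAAT and ATTGG), with both strands searched and each motif counted on its own. In the 250 bases before the start site, 18 of 43 mitotic genes with a window held the CHR letters (41.9%), against 18.3% of all 27025 genes, and 32 of 43 held a CCAAT box (74.4%), against 37.5%. The examples shown are Cdk1 (the mitotic kinase, change +4.47; chr10:69352913-69353162, minus strand) and Ccnb2 (cyclin B2, +3.85; chr9:70421555-70421804, minus strand), with both motifs in capitals.
Cdk1: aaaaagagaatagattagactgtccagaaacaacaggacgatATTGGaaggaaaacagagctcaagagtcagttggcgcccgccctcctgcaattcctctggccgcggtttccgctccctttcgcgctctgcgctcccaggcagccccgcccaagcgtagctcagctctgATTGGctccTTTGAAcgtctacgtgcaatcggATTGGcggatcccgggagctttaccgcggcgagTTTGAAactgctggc
Ccnb2: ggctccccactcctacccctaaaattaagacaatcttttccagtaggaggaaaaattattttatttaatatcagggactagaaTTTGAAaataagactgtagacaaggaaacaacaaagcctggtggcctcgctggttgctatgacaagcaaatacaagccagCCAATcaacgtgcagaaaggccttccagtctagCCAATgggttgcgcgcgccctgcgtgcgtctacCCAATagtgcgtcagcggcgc
In Cdk1 the CHR letters began 71 and 15 bases before the start site, and in Ccnb2 167 bases before it.

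Imprinted growth genes rose for 16 of 21 and fell for 4 (median +3.27, +2.80 at bounds). Dlk1, a Notch-like growth regulator of fetal tissues, was not above background in quiescent cells and read 4.92, 4.61 and 4.52 in activated cells, at least 762-fold higher. Meg3, a non-coding RNA of the same imprinted region, rose by 5.85 and Peg3 by 5.80, whereas the non-coding H19 was at least 10.2-fold lower and Cdkn1c fell as above. Igf2, the fetal growth factor next to H19, rose by 3.48, with 1 of 3 quiescent arrays above background.

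Enzymes of sugar metabolism changed by isozyme, with 13 of 36 higher and 13 lower and a median (+0.10) that turned with scaling (-0.33 to +0.25). Each count is 36.1% of the list, beside 42.1% higher and 26.0% lower of all genes. Hk2, a hexokinase of proliferating cells, read -0.65, -0.27 and -0.75 in quiescent cells and 0.76, 0.83 and 0.71 in activated cells (change +1.32, SE 0.15, adjusted p = 5.5e-05). The leukocyte hexokinase Hk3 fell by 5.23. The widely expressed aldolase Aldoa rose by 1.08 and Aldoc, an aldolase of brain, fell by 4.93, while the liver pyruvate kinase Pklr was at least 75.5-fold lower and Pkm rose by 2.44. Pklr thus fell beside the hepatocyte markers, and the part of hepatocyte RNA in that fall was not tested. Hk2, Aldoa and Pkm were higher on every activated array than on any quiescent array, while 69.8% of all genes did not overlap between groups. Eno3 (+4.13) and Pck2 (+3.43), a mitochondrial enzyme that makes phosphoenolpyruvate, rose too.

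Of 34 genes of serine, proline and glutamine metabolism 15 rose and 15 fell, with a median (+0.21) that turned under ribosomal protein scaling (-0.22). Psat1 and Phgdh, the first enzymes of serine synthesis, read -0.99, -0.88 and -1.63 against 3.74, 3.87 and 3.83 for Psat1 (change +4.98) and 0.09, -0.11 and -0.64 against 4.08, 4.26 and 4.25 for Phgdh (change +4.41). Aldh18a1 and Pycr1, which build proline from glutamate, rose by 3.54 and at least 10.9-fold. Asns, the asparagine synthetase, rose by 4.22. Prodh, which oxidises proline, read 3.88, 2.09 and 4.04 against -4.16, -4.32 and -4.18 (change -7.56), and the liver glutaminase Gls2 (-8.23) and the glutamine synthetase Glul (-4.89) fell. Prodh, Gls2 and Glul are hepatocyte genes as well, and the part of hepatocyte RNA in their falls was not tested.

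Fatty acid oxidation genes were lower for 29 of 36 and higher for 4 (median -2.00), with the peroxisomal oxidase Acox2 at -9.31 and the carnitine transferase Cpt1c of neurons at +6.37. Respiratory chain genes were lower for 26 of 49 and higher for 0 (median -0.51), led by Sdhb (-1.84) and Uqcrc2 (-1.78). At an unadjusted p under 0.05 limma called 0 of them higher. The count lower was 11 with the slide as a block, 9 with median scaling and 39 with ribosomal protein scaling, and with the mean of probes 20 were lower and 5 higher. Cholesterol synthesis genes were higher for 12 of 26 (46.2%) and lower for 6 (23.1%), near the 42.1% and 26.0% of all genes. Their median was +0.56, with the squalene epoxidase Sqle at +4.60 and Cyp51 at +3.23. Lipid droplet genes fell for 19 of 40 and rose for 9 (median -0.40), and 24 fell and 5 rose with ribosomal protein scaling. Plin2, the droplet coat protein, fell by 2.83, and Scd2, a desaturase of tissues outside the liver, rose by 4.92.

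Genes for the export and folding of proteins in the endoplasmic reticulum rose for 32 of 47 and fell for 6 (median +0.88; 19 and 10 with ribosomal protein scaling). The translocon subunit Sec61a1 rose by 1.86, the collagen-inducing factor Creb3l1 by 3.34, and the retrieval receptor Kdelr3 was at least 80.0-fold higher, whereas Xbp1 fell by 0.95. Transfer RNA synthetases rose for 12 of 20 and fell for 0 (median +0.65; 8 and 2 with ribosomal protein scaling), with 0 lower at an unadjusted p under 0.05 (limma). Proteasome genes were higher for 9 of 36 and lower for 8 (median +0.07), against 0 and 14 with ribosomal protein scaling (median -0.36) and 15 and 5 without quiescent array 3. The first counts are 25.0% and 22.2% of these genes, beside 42.1% and 26.0% of all genes. Leaving out quiescent array 2 turned the median (-0.07), leaving out any 1 activated array gave 4 or 5 lower, and the largest falls among them were those of Psmb9 (-3.24) and Psmb8 (-2.22), the interferon-induced subunits. Ribosomal protein genes were higher for 35 of 75 and lower for 0 (also 0 at an unadjusted p under 0.05, limma), with a median of +0.35, close to the +0.32 of all genes, and 10 higher and 16 lower when arrays were scaled to them. The first count is 46.7% of these genes, beside 42.1% of all genes. Their count higher was 18 with the slide as a block, 22 without activated array 2 and 21 without activated array 3. Of the 20 reference genes 7 rose and 3 fell (median +0.05), and 4 rose and 9 fell with ribosomal protein scaling. Leaving out each array gave 1 to 6 of them lower, 6 without quiescent array 2, where Hprt was also called (-0.45, adjusted p = 0.038). Gapdh (-0.23), Actb (-0.18) and Hprt (-0.34) were not called, but were lower with ribosomal protein scaling (-0.66, -0.61 and -0.77), while Tubb5 (+2.47) and Polr2a (+1.62) rose.

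Immediate-early genes, which answer quickly to stress and growth signals, were listed together with genes of cell dissociation. Of the 33 measured on this list 25 fell and 2 rose (median -1.84). All cells were isolated with collagenase, and the part of isolation in these falls was not tested. Fosb read 5.51, 5.48 and 3.85 against -3.29, -3.67 and -3.36 (change -8.39), and Fos and Atf3 fell by 5.14 and 5.83. Quiescent array 3 was lowest for 27 of the 32 genes above background on all quiescent arrays. Another AP-1 gene, Fosl1, was at least 15.3-fold higher. Antioxidant genes were lower for 19 of 33 and higher for 8 (median -1.24): Cat, the catalase, read 6.98, 6.57 and 6.85 against 2.77, 2.71 and 2.61 (change -4.11), and Gpx8, a peroxidase of the endoplasmic reticulum, read -1.30, -0.68 and -1.16 against 4.53, 4.37 and 4.38 (change +5.47).

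Immune genes fell beside the markers of macrophages and lymphocytes. Interferon response genes were lower for 25 of 40 and higher for 2 (median -1.26), cytokines and chemokines lower for 25 of 42 and higher for 10 (median -2.90, -2.74 at bounds; 6 higher without activated array 3), and Toll-like receptor genes lower for 12 of 22 and higher for 3 (median -0.77). Irf8, a factor of macrophages and B cells, fell by 8.41 and the macrophage cytokine Il1b was at least 743-fold lower. Csf1, the growth factor of macrophages, read 1.12, 2.12 and 1.27 against 5.45, 5.40 and 5.38 (change +3.91), Cx3cl1 rose by 5.46 and Il33, an alarmin of stromal cells, by 2.29. Ptprc, which all leukocytes carry, fell by 0.60 by its brightest probe (0.52, 0.43 and 0.33 against -0.38, -0.06 and -0.08), a call lost with median scaling (adjusted p = 0.097) and without activated array 1 (adjusted p = 0.062). The changes of its 4 further kept probes were -5.40 to -7.87.

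Markers of other mesenchymal and lining cells did not move as units. Mesothelial markers were higher for 10 of 19 and lower for 8 (median +0.64), and their sums overlapped between groups (69.4 to 96.0 against 95.8 to 107). Upk3b, a membrane protein of mesothelium, read -2.35, -3.62 and -3.28 against 0.62, 0.74 and 0.72 (change +3.78, SE 0.28, adjusted p = 2.8e-06), and Upk1b (+4.93), Pdpn (+6.38) and Wt1 rose with it. The keratin Krt18 read 4.70, 4.31 and 4.90 against -6.46, -5.26 and -4.63 (change -10.09; 2 of 3 activated arrays above background), and Krt8 (-9.27), Krt19 (-3.15) and Cdh1 fell, all of them genes that hepatocytes or bile duct cells also express. Portal fibroblast markers were higher for 13 of 21 and lower for 7 (median +1.04), and their sum was 26.5 to 41.7 in quiescent and 247 to 262 in activated cells. Fbln2 and Cd34 (+5.34) were among those that rose, and Slit3, a guidance ligand, was at least 164-fold higher, whereas the brightest probe of Dpp4 was at least 415-fold lower and another kept probe, above background on all 6 arrays, fell by 0.95. Smooth muscle and pericyte markers were higher for 6 of 18 and lower for 8 (median -0.59), and the median turned with the filter on all arrays (+0.98), which left 8 of them. Their sum was 64.8 to 71.2 in quiescent and 209 to 222 in activated cells, but without Acta2, a choice made after its values were seen, 63.9 to 70.9 against 41.3 to 44.6. Myh11, the smooth muscle myosin, read -3.97, -4.47 and -4.74 against -3.22, -3.79 and -3.84 (change +0.78, adjusted p = 0.018), with 2 of 3 quiescent arrays above background. Its other kept probe gave -0.65, and it was called in 11 of 18 fits, not without quiescent array 3 (adjusted p = 0.058) or activated array 1 (adjusted p = 0.064). Cholangiocyte markers were higher for 5 of 14 and lower for 8 (median -2.08, -1.88 at bounds), with Spp1, the osteopontin gene that myofibroblasts also make, at +3.37. Their median was -0.49 with normexp and quantile normalization and turned with the filter on all arrays (+1.23), which left 5 of them. Last, neural and Schwann cell markers were higher for 7 of 15 and lower for 5, with a median (+0.63) that turned under normexp (-0.42) and with the filter on all arrays (-0.63).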

How the data were processed

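Cy3-labelled RNA of each sample was hybridised to 1 Agilent array and its scan was quantified in version 10.7.1.1 of Agilent Feature Extraction, as the submitters' processing notes say. The deposited scanner files hold a background-corrected intensity per spot, a mean spot intensity with its local background intensity, and other values, spot flags for signal above background, saturation and outliers, per the file headers. The deposited value table holds intensity values of the same arrays and served as an alternative. The headers place probes on mm9. None of the spots was saturated.

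Control and outlier spots were left out (R 4.3.3). The processed intensity was scaled to the array's 75th percentile and taken to log2, spots of a probe were averaged, and a probe was kept when at least 0.5 of its spots were above background on all arrays of 1 group. Each gene was represented by its brightest kept probe on average, so that 36817 of 56605 probes gave 23965 genes. Symbols were updated through RefSeq (GRCm38.p6) by accession for 32994 probes and by symbol or synonym for 10224 and 520, and 12867 kept the array's own name. limma 3.58.1 (lmFit and eBayes) fitted group means over all 9 arrays, with 2-sided p-values after Benjamini-Hochberg adjustment over all genes, and was checked on simulated data. The number of arrays limits the precision.

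The 56 lists, with 1624 of 1763 genes measured, and a panel of single genes were chosen with earlier results of these data known. Genes named were the panel, the reference genes, and for each list up to 4 of the largest rises and falls among genes above background on all 6 arrays and up to 3 of the largest bounds in each direction. Named outside that rule, after their values were seen, were Acta1, Aldoa, Bmp10, Ccnb2, Cdk1, Csf3r, Dcn, Ednra, Ednrb, Fos, Foxf1, Has1, Hk2, Igf2, Krt18, Myl9, Pdgfa, Pdgfc, Pklr, Plin2, Pparg, Rbp4, Rxrg, Slc10a1, Sox17 and Vcl. Alternatives covered scaling, background correction, the filter on dim probes, the probe rule, slide and replicate blocks, array weights, the value table, and each array left out.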

Additional observations from a re-analysis of the deposited data

How the results depend on the processing

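For samples of the 2 groups with the same replicate number, deviations from the group means had correlations of -0.055, -0.023 and -0.019. With 3 arrays per group these values cannot show whether such samples were paired. The fit with replicate numbers as a block gave 15837 calls. With array weights there were 15676 calls and with the compared groups alone 14786. Leaving out each array gave 14589 to 16823 calls, 8924 to 10308 higher and 5557 to 6654 lower, 60.4 to 62.5% higher, and 31 or 32 lists with more members higher than lower, against 32 with all arrays. Ribosomal protein scaling gave 6590 genes higher and 44.3% of calls higher. Genes higher by at least 1 on the log2 scale numbered 6924, against 3905 with normexp scaled to the 75th percentile (46.2% of calls higher), 4150 with normexp and quantile normalization and 3988 with the filter on all arrays, which left 2984 lower by at least 1. With no filter 10879 genes were lower, 9467 of them by at least 1, and 47.0% of calls were higher. The log2 difference of the summed hepatocyte markers was 3.94, 3.79 with median scaling, and 5.50 without Slc10a1, an alternative chosen after seeing the data. The median of all genes was +0.47 with median scaling, +0.12 with the percentile of detected probes, -0.11 with ribosomal protein scaling and -0.12 with normexp. Of the lists, normexp gave smaller median rises for fibrillar collagens (+2.15), proteases (+1.79) and growth factor ligands (+1.13). It gave smaller median falls for retinoid genes (-1.71) and cytokines (-1.85), and 3 intermediate filament genes higher and 11 lower. With ribosomal protein scaling 16 genes of the TGF-beta family rose and 21 fell, and 13 and 7 replication histones, 28 and 4 contractile genes and 6 and 26 cytokines did. The filter on all arrays, which drops genes below background in either group, left 12 retinoid genes lower of 18 and 8 other collagens higher of 11, and turned the median of serine, proline and glutamine genes (-0.12). Signs turned for Ecm1 (-0.14 with the percentile of detected probes, -0.36 with ribosomal protein scaling, -0.24 with normexp and quantile normalization, -0.065 with the mean of probes, and -0.27 to 0.43 leaving out each array), Slc10a1 (-0.044, -0.27 and -5.27 with the percentile of detected probes, ribosomal protein scaling and the mean of probes, -0.17 with the slide as a block), Csf3r (-0.14 and -0.13 with ribosomal protein scaling and with normexp and quantile normalization), Bmp10 (-0.26) and Myh11 (-0.16) with normexp, Actb with normexp and quantile normalization (+0.17), Gapdh with the mean of probes (+0.14) and Lhx2 without quiescent array 2 (-0.76 to 0.23 leaving out each array). Over all alternatives, named genes kept direction and side of the threshold in 4036 cases, lost a call in 21, gained one in 14 and turned in 16, and the cause was not tested.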
